A study of Saccharomyces cerevisiae with 118 samples.

Results

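Budding yeast mother cells aged for 24 h on galactose were compared with mother cells of the same age on glucose, all wild type, using poly(A) RNA sequencing. The members are all wild type samples labelled 24 h on YPD or YPGal in the main gene table, which gives 7 of its 59 samples and 7 of the 118 samples of the series. There were 4 glucose samples, named E30_1, E30_2, E34 and lane6854 after the experiment or sequencing lane in their labels, and 3 galactose samples, named E34, E56 and lane6854. The series follows mRNA abundance during replicative ageing of wild type and mutant yeast on different carbon sources, and this comparison asks how the transcriptome of mother cells aged for 24 h differs between the sugars. Every sample came from the mother enrichment programme (MEP) diploid, in which β-estradiol activates a Cre recombinase driven by the daughter-specific SCW11 promoter. Cre then disrupts the loxP-flanked UBC9 and CDC20 genes in newborn daughters, so that daughters stop dividing while the original mothers age. The diploid also carried heterozygous Tom70-GFP and RPL13A-mCherry markers in both groups. Log phase cells were labelled with biotin, grown in rich YP medium with 2% glucose or 2% galactose, treated with β-estradiol, which was added somewhat later to galactose than to glucose cultures, and the labelled mothers were purified at 24 h. Log phase cells of the same strain (n = 3 on each sugar) and mothers at 48 h (n = 4 on glucose and n = 3 on galactose) are used below as reference points, and a separate experiment with 3 glucose and 3 galactose samples at 24 h serves as an independent set.

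Glucose is the preferred sugar of Saccharomyces cerevisiae. While it is present, the repressor Mig1 and its relatives keep genes for other sugars and for respiration low, and the kinase Snf1 relieves this repression when glucose is scarce. Galactose is imported by Gal2 and converted to glucose-6-phosphate by the Leloir pathway enzymes Gal1, Gal7, Gal10 and the phosphoglucomutases. Its genes are activated by Gal4, which is held back by Gal80 until the galactose sensor Gal3 binds Gal80. Galactose does not repress respiration as strongly as glucose does, and the Hap complex, with its limiting subunit Hap4, activates nuclear genes for the respiratory chain, while Cat8, Sip4 and Adr1 activate genes for gluconeogenesis and for the use of two-carbon compounds.

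The Gal4 recognition sequence CGGNNNNNNNNNNNCCG was searched on both strands in the 600 bases upstream of each start codon, because the largest differences at 24 h lay in the genes it controls. It was found at 10 of the 11 galactose genes examined, all but FUR4, and in 3.5% of 6656 such windows across the genome. These 11 genes were listed as known members of the pathway, so the share is a description of the list. The stretches below were read from the reference genome build R64, on the strand of the gene named, with each match in capitals. They lie at chrII:278558-278631 (GAL1, + strand, the stretch it shares with the divergently transcribed GAL10), chrII:275693-275729 (GAL7, - strand), chrXII:289672-289910 (GAL2, + strand), chrIV:463136-463172 (GAL3, + strand), chrXIII:171412-171448 (GAL80, + strand), chrXVI:82800-82836 (GAL4, - strand), chrXV:550735-550771 (GCY1, + strand), chrIV:1016145-1016181 (MTH1, - strand) and chrVII:255421-255457 (PCL10, + strand).
GAL1: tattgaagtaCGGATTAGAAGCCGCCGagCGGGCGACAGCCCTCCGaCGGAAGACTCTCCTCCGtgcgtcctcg
GAL7: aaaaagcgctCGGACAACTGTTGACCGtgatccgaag
GAL2: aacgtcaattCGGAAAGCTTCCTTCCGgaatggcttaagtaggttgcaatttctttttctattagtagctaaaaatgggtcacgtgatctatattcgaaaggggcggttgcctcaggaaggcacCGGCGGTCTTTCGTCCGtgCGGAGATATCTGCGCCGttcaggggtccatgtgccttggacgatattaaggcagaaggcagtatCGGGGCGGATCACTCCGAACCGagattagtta
GAL3: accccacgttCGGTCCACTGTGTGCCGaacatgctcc
GAL80: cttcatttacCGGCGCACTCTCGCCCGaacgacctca
GAL4: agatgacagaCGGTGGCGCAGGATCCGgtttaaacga
GCY1: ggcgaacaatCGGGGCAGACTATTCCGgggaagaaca
MTH1: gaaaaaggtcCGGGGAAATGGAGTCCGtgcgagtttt
PCL10: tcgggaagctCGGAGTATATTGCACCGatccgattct
GAL1 and GAL10 share 3 matches, GAL2 has 5 of which the last 2 overlap, and the other genes shown have 1 each. At MTH1 alone among the 11 a match to the second motif described next overlaps the Gal4 match.

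A second motif, CCNTNNNNCCG on either strand, which matches the carbon source-responsive element bound by Cat8 and Sip4, was searched in the same windows because genes of gluconeogenesis and the glyoxylate cycle also differed. It was found in 8.59% of all windows and at 7 of the 11 genes of that list. These genes too were listed as known members of their pathways, so the share is a description of the list. IDP2, JEN1, CIT2 and ICL2 held no match, although Cat8 sites outside these letters or windows were not searched. A match nearest the start codon is shown for each of the 7 genes, in capitals, at chrXII:875276-875306 (FBP1, - strand), chrXI:630780-630810 (PCK1, + strand), chrV:287292-287322 (ICL1, - strand), chrXIV:405848-405878 (MLS1, + strand), chrXV:83277-83307 (MDH2, - strand), chrX:609183-609213 (SFC1, + strand) and chrIII:133615-133645 (ADY2, - strand).
FBP1: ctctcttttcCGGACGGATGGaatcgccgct
PCK1: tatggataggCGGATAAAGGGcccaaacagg
ICL1: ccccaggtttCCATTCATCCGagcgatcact
MLS1: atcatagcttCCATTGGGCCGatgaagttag
MDH2: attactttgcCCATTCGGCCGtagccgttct
SFC1: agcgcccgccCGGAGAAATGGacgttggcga
ADY2: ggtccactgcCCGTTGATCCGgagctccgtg

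The 24 h libraries held 7037442 to 8112977 counted reads on glucose and 7011514 to 14495354 on galactose, E56 being the deepest. Values given per sample are normalised read counts, that is reads scaled by a size factor per library, in the order E30_1, E30_2, E34 and lane6854 on glucose and E34, E56 and lane6854 on galactose. The glucose sample E34 stood apart from the other glucose samples in several genes. Counts without single libraries are given beside many of the lists. As a check of the diploid, the mating pheromone gene MFA1, which a/alpha cells repress, had 5.09 to 16.6 normalised counts on glucose and 2.3 to 15 on galactose. The alpha agglutinin gene SAG1 was not as low, with 396 to 632 on glucose and 304 to 358 on galactose. The summed level of 11 a-specific and alpha-specific genes ranged from 1074 to 1465 on glucose and from 896 to 1067 on galactose, and none of them was without reads in every sample. Because RNA was measured in bulk, fewer cells expressing a gene cannot be told apart from less RNA per cell.

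Of 5934 nuclear genes tested, 1194 differed between galactose and glucose at 24 h (limma on quantile-normalised log2 values, adjusted p below 0.01), which is 20.1%. Of these, 560 were higher on galactose (9.44% of those tested) and 634 were lower (10.7%), and the median difference over all genes was -0.05 on the log2 scale. The 9.44% and 10.7% are the background for the counts of called genes in each list below. At a fold change of at least 2, 180 were higher and 80 lower. The samples of the groups did not overlap at all in 2332 genes (39.3%). The split depended on the scaling, as the deposited size factor scaled values gave 641 higher (10.8%) and 471 lower (7.94%), 1112 in all (18.7%), and 992 of the 1194 calls were also made in that fit. Without the galactose sample E34, 709 genes were called. With the experiment as a block, which pairs the samples of E34 and of lane6854, there were 1822 calls (753 higher and 1069 lower, 30.7%). The label lane6854 names only a sequencing lane, and it was used as a block like an experiment. With the sequencing lane as a term there were 904 calls. E30_1, E30_2 and both E34 samples shared a lane. E56 was alone on its lane among these samples, so it does not inform the difference in the lane fit. In the block fit E30_1, E30_2 and E56 have no partner and do not inform the difference. Its 24 h differences rest on the E34 and lane6854 pairs alone, which leaves almost no replication for their SE.

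All 11 genes of galactose use and known Gal4 targets were more abundant on galactose, by a median of 4.25 on the log2 scale, against 9.44% of all genes called higher. GAL1, which encodes galactokinase, had 64.1, 71.2, 62.8 and 58.4 normalised counts on glucose and 92078, 100133 and 95829 on galactose. This was a 1590-fold difference (log2 10.63 ± 0.07 SE, limma, adjusted p = 9.5e-15), and the groups lay far apart. GAL10, the galactose mutarotase and UDP-galactose 4-epimerase, had 12.1, 13.2, 23.1 and 12.7 on glucose and 68153, 72864 and 70941 on galactose, the largest difference of any gene tested (log2 12.36 ± 0.21, limma, adjusted p = 5.69e-11). GAL7, the uridylyltransferase between them in the pathway, had 19.9, 27.5, 38.6 and 36 on glucose and 34796, 37126 and 40639 on galactose (log2 10.23 ± 0.24). The permease gene GAL2 had 12.1, 15.3, 20.9 and 20.5 on glucose and 37706, 40623 and 43080 on galactose (log2 11.32 ± 0.23). Within glucose, the lowest GAL7 and GAL2 values were both in E30_1, and the highest GAL10 value was in E34.

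The regulators of the pathway differed less than the enzymes. The sensor gene GAL3 had 120, 96.6, 107 and 79.9 on glucose and 2355, 2463 and 2626 on galactose, 24.9-fold more (log2 4.64 ± 0.12). The repressor gene GAL80 had 1101, 1062, 1068 and 895 on glucose and 2873, 2768 and 3052 on galactose, 2.73-fold more. The activator gene GAL4 had 99.4, 91.5, 107 and 83.8 on glucose and 260, 275 and 267 on galactose, 2.78-fold more. All 3 regulators were therefore transcribed on glucose at levels clear of zero, and in none did the groups overlap. Over all genes tested, 39.3% had no overlap. Among the other targets, GCY1, an aldo-keto reductase, had 352, 323, 281 and 317 on glucose and 5774, 5843 and 7204 on galactose, 19-fold more. MTH1, a corepressor of hexose transporter genes, differed by log2 2.3, FUR4, the uracil permease, by 1.3, and PCL10, a cyclin of the kinase Pho85, by 1.14. FUR4 was thus called although its window held no match to the Gal4 sequence printed above.

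**Figure D1:**
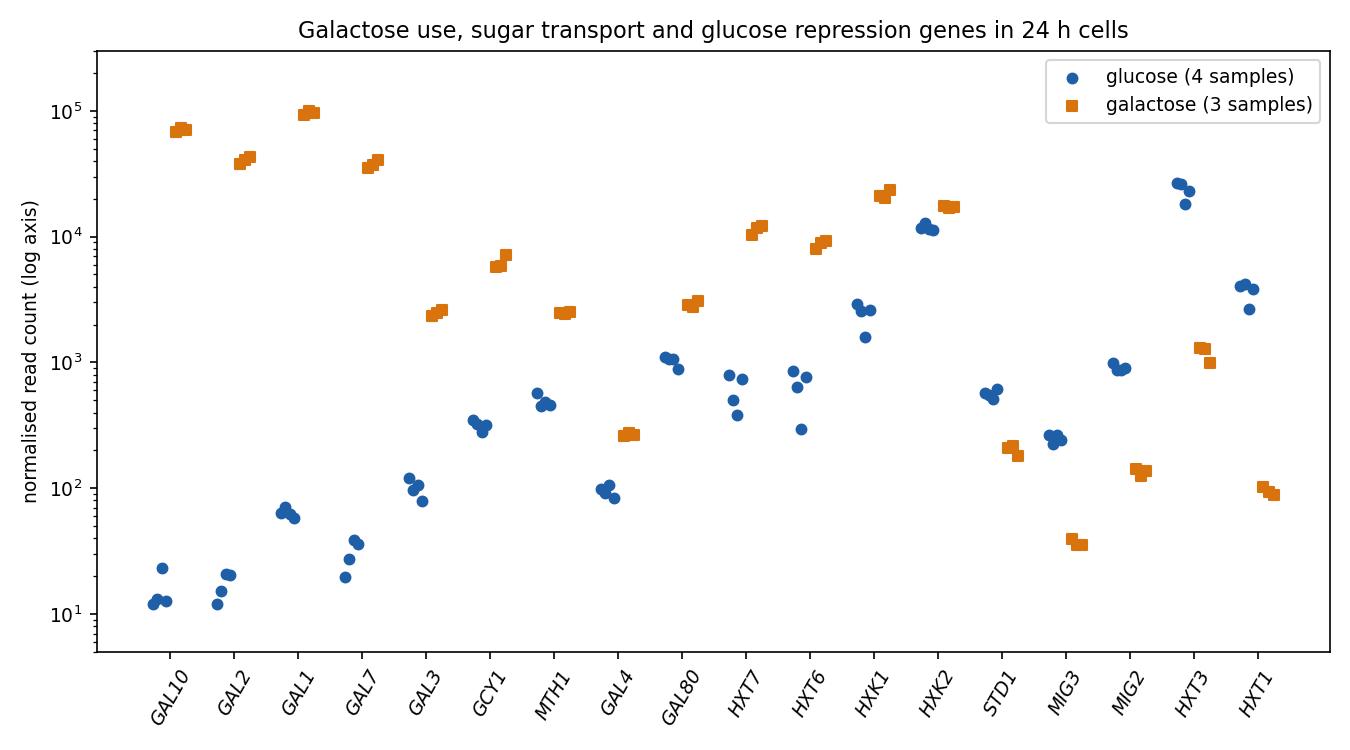
Normalised read counts (log axis) of galactose, sugar transport and glucose repression genes in each 24 h sample, glucose and galactose samples drawn as separate markers. The GAL1 points lie between 58.4 and 71.2 on glucose and between 92078 and 100133 on galactose, whereas HXT1 and HXT3 lie higher on glucose.

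The hexose transporters moved in both directions, with 4 of the 17 tested members of the transporter and sensor list higher on galactose, 4 lower and a median of -0.06. The low affinity transporter gene HXT1 had 4026, 4218, 2637 and 3809 on glucose and 103, 93.8 and 88.7 on galactose, 38-fold less on galactose (log2 -5.25 ± 0.14, limma, adjusted p = 1.9e-09). HXT3, which also encodes a low affinity transporter, had 26632, 26222, 18272 and 22987 on glucose and 1313, 1290 and 993 on galactose (log2 -4.37 ± 0.12). The 2 genes had their lowest glucose value in E34, yet this value was far above every galactose value. The high affinity transporter genes HXT6 and HXT7 went the other way. HXT7 had 796, 504, 379 and 732 on glucose and 10245, 11681 and 12108 on galactose, 18.9-fold more, and HXT6 had 856, 643, 296 and 772 on glucose and 7956, 8966 and 9240 on galactose, 14.3-fold more. Their open reading frames differ at 3 of 1713 bases, so reads could be divided between them and their separate values are uncertain. HXT5, a transporter of slowly growing cells, was 2.17-fold higher. HXT2 and HXT4, transporters induced at low glucose, were not called, with log2 differences of -0.79 and -0.24, and the groups overlapped for HXT4 but not for HXT2. HXT2 was called lower with the experiment as a block (log2 -1.05 ± 0.06).

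The glucose sensors also differed in opposite directions. SNF3, the sensor for low glucose, had 361, 378, 320 and 337 on glucose and 594, 620 and 640 on galactose (log2 0.78 ± 0.08). RGT2, the sensor for high glucose, had 535, 491, 527 and 450 on glucose and 358, 364 and 357 on galactose (log2 -0.52 ± 0.08). STD1, a corepressor paralogous to MTH1, was 2.85-fold lower on galactose, opposite to its paralogue. In the list as a whole, the deposited values without quantile normalisation gave 6 members lower in place of 4, and the 4 higher members stayed at 4.

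Among 24 tested genes of glucose repression and the Snf1 pathway, 9 were higher and 4 lower on galactose, or 2 lower without the galactose sample E34. The repressor gene MIG2 had 988, 878, 864 and 899 on glucose and 143, 125 and 138 on galactose, 6.78-fold less (log2 -2.76 ± 0.07, limma, adjusted p = 1.83e-09). Its paralogue MIG3 had 266, 225, 264 and 243 on glucose and 39.4, 35.7 and 35.7 on galactose, 6.32-fold less. MIG1, the main glucose repressor, differed in the opposite direction and by far less, with 651, 625, 717 and 647 on glucose and 931, 895 and 910 on galactose (log2 0.43 ± 0.07). The 3 repressor paralogues thus separated without overlap, as 39.3% of all genes tested did, and not in a common direction.

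The hexokinases were all higher on galactose. HXK1, the isoenzyme repressed by glucose, had 2929, 2561, 1607 and 2589 on glucose and 21037, 20182 and 23429 on galactose, 8.28-fold more. GLK1, glucokinase, was 2.39-fold higher, and HXK2, the main isoenzyme on glucose, was 1.37-fold higher with 11343 to 12800 on glucose and 16814 to 17660 on galactose. The activator gene CAT8 had 230, 181, 193 and 172 on glucose and 563, 548 and 561 on galactose, 2.83-fold more. ADR1, the activator of genes for ethanol and fatty acid use, was 2.02-fold higher, whereas SIP4 was not called (log2 0.51 ± 0.19, limma, adjusted p = 0.0659).

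Genes for the use of other sugars were also more abundant on galactose, although neither sucrose nor maltose was supplied. Of 10 tested genes of sucrose and maltose use, 6 were higher and none lower, with a median of 0.9. The invertase gene SUC2 had 869, 731, 788 and 691 on glucose and 3644, 2948 and 3616 on galactose, 4.29-fold more. The maltose permease genes MAL11 and MAL31 were 1.93-fold and 2.28-fold higher, and the maltose activator gene MAL33 was 1.8-fold higher. The maltase genes MAL12 and MAL32 were low on both sugars, with 22.4 to 47.5 normalised counts on glucose and 66.6 to 96.8 on galactose, and are 99.5% identical, so that they are best read together.

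Gluconeogenesis and the glyoxylate cycle, which build sugars from two-carbon compounds, had 8 of 11 members higher on galactose, 1 lower and a median of 1.19. JEN1, the lactate and pyruvate permease, had 130, 115, 142 and 134 on glucose and 928, 923 and 1059 on galactose, 7.29-fold more (log2 2.87 ± 0.09, limma, adjusted p = 7.58e-09). MLS1, malate synthase, had 26.5, 24.4, 28.7 and 23.4 on glucose and 178, 150 and 136 on galactose, 6.55-fold more. The mitochondrial succinate-fumarate carrier gene SFC1 had 58.5, 33.6, 100 and 43.8 on glucose and 321, 274 and 281 on galactose. In none of these 3 genes did the groups overlap, as was so for 39.3% of all genes tested.

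FBP1, fructose-1,6-bisphosphatase, was 4.29-fold higher and PCK1, phosphoenolpyruvate carboxykinase, 2.81-fold higher. ICL1, isocitrate lyase, and IDP2, the cytosolic isocitrate dehydrogenase, were 2.28-fold and 2.14-fold higher, and MDH2, the cytosolic malate dehydrogenase, 1.43-fold. The exception was CIT2, the peroxisomal citrate synthase and a target of the mitochondrial retrograde pathway, with 2856, 3079, 2464 and 2946 on glucose and 700, 612 and 708 on galactose, 4.31-fold less. ADY2, an acetate transporter, was near 10 normalised counts on both sugars and overlapped between groups despite the motif in its window, and ICL2 was not called. Of 19 genes for fatty acid oxidation, 5 were higher, among them POX1, the acyl-CoA oxidase, by 2.22-fold, which was lost with the block (limma, adjusted p = 0.0112) and by the deposited values (limma, adjusted p = 0.0109).

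The respiratory chain showed the most uniform difference after the galactose genes. Of 42 tested subunits and regulators of succinate dehydrogenase, complex III with cytochrome c, cytochrome c oxidase and ATP synthase, 41 were higher on galactose and none lower, with a median of 1.46. Leaving out any 1 library kept this between 39 and 41. All 4 succinate dehydrogenase subunits were called, with a median of 1.9. SDH1, its flavoprotein, had 1116, 997, 930 and 934 on glucose and 4884, 4913 and 4700 on galactose, 4.67-fold more (log2 2.22 ± 0.07, limma, adjusted p = 5.79e-09). SDH2, the iron-sulphur subunit, had 667, 650, 533 and 579 on glucose and 2680, 2745 and 3002 on galactose, and the membrane anchors SDH3 and SDH4 were 2.67-fold and 3.08-fold higher.

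All 11 genes of complex III and cytochrome c were higher, with a median of 1.6. CYC1, the main cytochrome c gene, had 537, 503, 396 and 474 on glucose and 2096, 1986 and 2377 on galactose, 4.45-fold more. CYC7, the isoform favoured without oxygen, had 151, 120, 101 and 134 on glucose and 270, 178 and 353 on galactose, 2.04-fold more, with a wider spread between the galactose samples. RIP1, the Rieske protein, was 3.57-fold higher. Cytochrome c oxidase had 9 of 10 members higher, with a median of 1.54. The subunit 5 isoforms differed from each other: COX5A had 604, 582, 482 and 500 on glucose and 2139, 2047 and 2314 on galactose (log2 1.98 ± 0.09), whereas COX5B, the isoform of low oxygen, had 355, 352, 229 and 331 on glucose and 358, 312 and 370 on galactose (log2 0.1 ± 0.14, limma, adjusted p = 0.604, and 0.34 ± 0.11 with the block, limma, adjusted p = 0.00958). YDR119W-A, annotated as COX26, showed the largest difference of the respiratory lists, with 15.5, 13.2, 12.1 and 20.5 on glucose and 230, 182 and 331 on galactose (log2 4.22 ± 0.26).

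ATP synthase had all 17 tested genes higher, with a median of 1.38. The alpha and beta subunit genes ATP1 and ATP2 moved almost equally. ATP1 had 6871, 6555, 6179 and 6117 on glucose and 17863, 18814 and 18522 on galactose, and ATP2 was 2.66-fold higher. The inhibitor gene INH1 was 4.3-fold higher, with 364, 310, 334 and 379 on glucose and 1471, 1348 and 1793 on galactose, and STF1 and STF2, annotated as stabilising factors of Inh1, were 1.6-fold and 2.02-fold higher. Of 13 tested TCA cycle genes, 8 were higher, with a median of 0.74. MDH1, malate dehydrogenase, was 3.63-fold higher, KGD2, of the alpha-ketoglutarate dehydrogenase complex, 3.04-fold, and CIT1, citrate synthase, 2.21-fold. The genes for the steps from citrate to alpha-ketoglutarate were not among them: ACO1 had 6447 to 9945 on glucose and 9332 to 12269 on galactose, and IDH1 and IDH2 differed by log2 -0.2 and -0.05. ACO1 was called higher with the block (log2 0.33 ± 0.05).

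**Figure D2:**
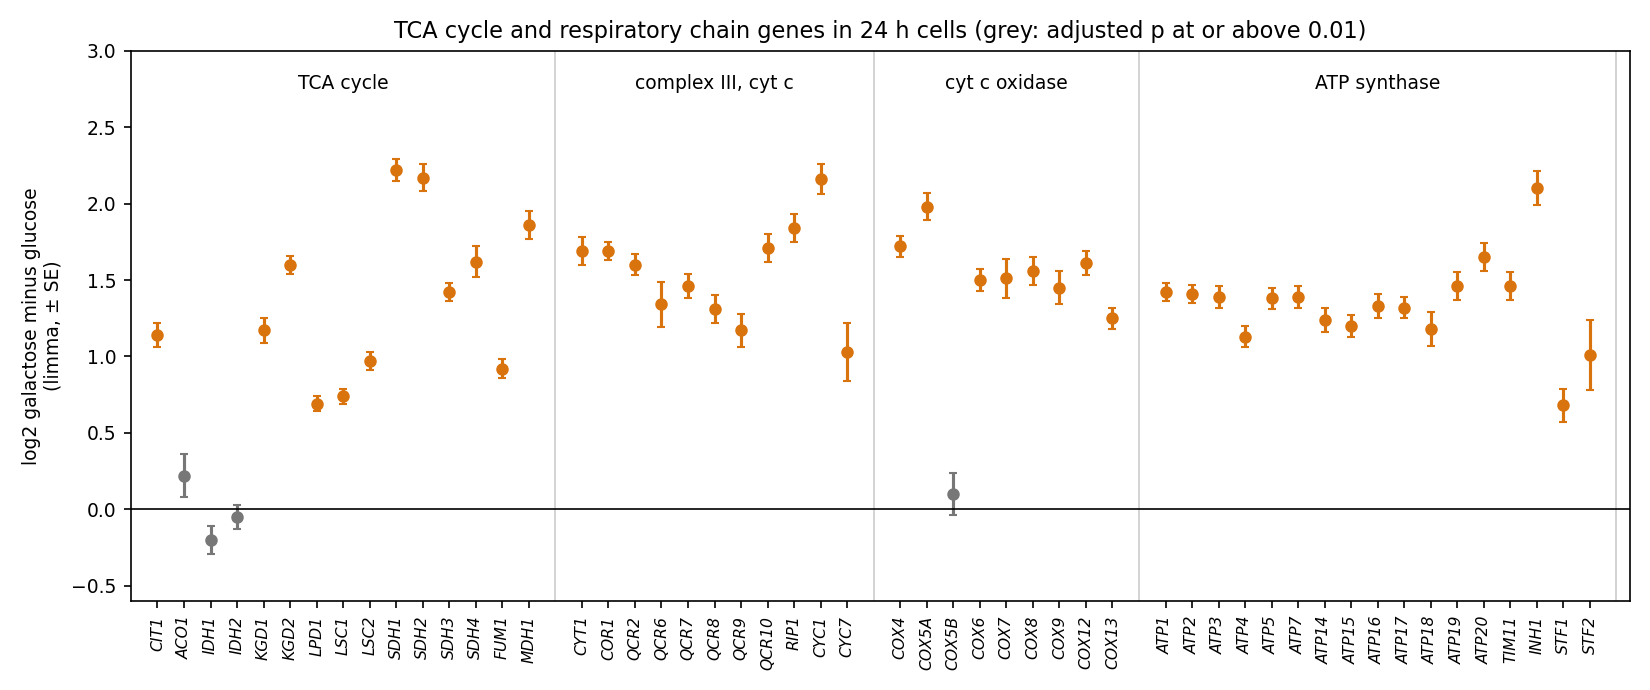
Log2 difference in abundance, galactose minus glucose at 24 h, for genes of the TCA cycle, the respiratory chain and ATP synthase, with SE from limma as error bars and grey points for genes that were not called. YDR119W-A, at 4.22, is not drawn, and most genes of succinate dehydrogenase, complex III, cytochrome c oxidase and ATP synthase lie between 1 and 2.5 while COX5B, IDH1 and IDH2 lie near 0.

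The activator gene HAP4 had 1654, 1694, 985 and 1832 on glucose and 3198, 3412 and 4214 on galactose, 2.32-fold more (log2 1.21 ± 0.19, limma, adjusted p = 0.000771). The glucose sample E34 was the lowest. Of the 4 Hap complex genes, HAP4 and HAP2 were called higher, HAP2 by 1.54-fold, and 1 of the 2 was called without the galactose sample E34 or lane6854 or the glucose sample E30_1, and also in the independent experiment described below. Among 25 genes of heme synthesis and oxygen-dependent functions, 11 were higher and 4 lower, where 9.44% of all genes were higher and 10.7% lower. The lower count was 2 without the galactose sample E34 or lane6854 or the glucose sample E30_1 or E30_2. CYB2, the lactate cytochrome c oxidoreductase, had 76.2, 45.8, 58.4 and 72.1 on glucose and 301, 254 and 363 on galactose, and NDI1, the internal NADH dehydrogenase, was 3.79-fold higher. OLE1, the oxygen-requiring fatty acid desaturase, was 1.72-fold higher.

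Some genes used with or without oxygen differed in opposite directions. PET9, the main mitochondrial ADP/ATP carrier, had 5794, 5315, 4729 and 5137 on glucose and 15459, 17287 and 15683 on galactose, 2.95-fold more. AAC3, the carrier of anaerobic cells, had 151, 173, 117 and 140 on glucose and 28.1, 35.7 and 36.9 on galactose, 3.93-fold less. ANB1, the form of eIF5A expressed without oxygen, had 157, 205, 122 and 147 on glucose and 20.6, 21.3 and 41.5 on galactose, 5.32-fold less. CYC7 did not follow this pattern, since it was higher on galactose. Neither did COX5B, with 229 to 355 on glucose and 312 to 370 on galactose.

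The seripauperin and related cell wall genes (PAU, DAN and TIR) are induced when oxygen is low, and 16 of 30 were abundant enough to be tested. Of these, 4 were lower on galactose and none higher, where 10.7% of all genes were lower. Without the galactose sample lane6854 or the glucose sample E30_1, E30_2 or lane6854, 2 were lower. TIR1 had 288, 316, 230 and 357 on glucose and 173, 224 and 139 on galactose (log2 -0.78 ± 0.18). DAN1 had 13 to 28 reads per glucose library and 1 to 4 per galactose library, or 82 against 7 reads in all. Scaled for depth this gives 11.3-fold more on glucose, with a 95% interval of 5.22 to 28.9 from an exact conditional binomial. PAU4 had 10 to 15 reads on glucose and 0 to 2 on galactose, a ratio of 25.5 with an interval of 6.71 to 216. These intervals cover counting error only, and the many near-identical PAU genes could share reads.

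Nuclear genes for mitochondrial ribosomal proteins were higher in 45 of 70 tested cases and lower in none, with a median of 0.37. The differences were small and evenly spread, with every member between 0.04 and 0.62, and the largest was below that of any succinate dehydrogenase gene. Leaving out the galactose sample E34 reduced the count to 28. Of 8 mitochondrial import receptors 1 was higher, against 9.44% of all genes. Leaving out any library except the galactose sample lane6854 removed that call, as did lane as a term.

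Glycogen and trehalose metabolism, which stores glucose units, had 13 of 20 genes higher on galactose and 1 lower, with a median of 0.6. GLC3, the glycogen branching enzyme, had 349, 265, 199 and 316 on glucose and 1670, 1419 and 2263 on galactose, 6.16-fold more. GPH1, glycogen phosphorylase, had 828, 673, 473 and 772 on glucose and 3278, 3239 and 4225 on galactose, 5.13-fold more, so that genes for making and for breaking down glycogen were both higher. GAC1, a regulatory subunit of the phosphatase that activates glycogen synthase, was 6.96-fold higher, and GSY1, glycogen synthase, 4.64-fold. The phosphoglucomutases, the last step of the galactose pathway, differed in opposite directions: PGM2 had 752, 634, 484 and 699 on glucose and 3622, 3367 and 5008 on galactose, 6-fold more, while PGM1 was 1.38-fold lower. In PGM2, GLC3, GPH1 and GAC1 the glucose sample E34 was the lowest glucose sample and lane6854 was the highest galactose sample.

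With quantile-normalised values, 9 of 17 glycolysis genes were lower on galactose, 1 was higher and the median was -0.22, whereas the deposited values gave 2 lower and 1 higher. The count of lower genes was 5 without the galactose sample E34 or E56 and 4 without the glucose sample E30_1 or E30_2, and with the block 10 were lower and 3 higher. The largest difference in the list was that of TDH1, a glyceraldehyde-3-phosphate dehydrogenase gene, with 3434, 4024, 1816 and 3714 on glucose and 5138, 4149 and 7733 on galactose. Its groups did not overlap. TDH1 was called with the block (log2 1.28 ± 0.06), which uses only the E34 and lane6854 pairs, but not without it (0.79 ± 0.28, limma, adjusted p = 0.0468). CDC19, the main pyruvate kinase, had 59786, 66535, 60752 and 56990 on glucose and 50060, 50767 and 41479 on galactose, and GPM1, phosphoglycerate mutase, had 39353 to 46898 and 37505 to 38426. TDH2, a paralogue of TDH1, was 1.42-fold lower and ENO2, enolase, 1.34-fold lower. PYK2, the minor pyruvate kinase, was 1.56-fold higher, and ENO1 was not called (log2 0.3 ± 0.18), but was with the block (0.6 ± 0.05). CDC19 and GPM1 were not called by the deposited values (limma, adjusted p = 0.0121 and 0.0657). In ethanol and acetate metabolism, 3 of 16 genes were higher and 4 lower, where 9.44% of all genes were higher and 10.7% lower. The deposited values gave 3 and 1, where 10.8% and 7.94% of all genes were. The lower count was 1 without the galactose sample lane6854 and 2 without the galactose sample E34 or the glucose sample E30_1, E30_2 or lane6854. ALD4, the mitochondrial aldehyde dehydrogenase, and ACH1, a mitochondrial CoA transferase, were 2.51-fold and 3-fold higher.

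Iron acquisition differed in the opposite direction to respiration. Of 13 iron uptake genes, 9 were lower on galactose and none higher, with a median of -0.87, against 10.7% of all genes called lower. FIT2, a cell wall mannoprotein that retains siderophore iron, had 446, 625, 528 and 378 on glucose and 103, 88 and 64.5 on galactose, 5.74-fold less (log2 -2.52 ± 0.19, limma, adjusted p = 3.36e-06). FIT3, of the same family, had 1266, 1682, 1445 and 955 on glucose and 359, 330 and 274 on galactose, and the siderophore transporter genes ENB1 and ARN2 were 2.72-fold and 2.36-fold lower. The low affinity transporter gene FET4 was 2.21-fold lower. The high affinity ferroxidase gene FET3 did not share this, with 2065 to 2475 on glucose and 2020 to 2652 on galactose (log2 -0.04 ± 0.1).

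Of 12 iron regulators and genes of iron sparing, 5 were lower (3 without the galactose sample E34 or the glucose sample E30_1 or E30_2) and 1 higher. TIS11, which destabilises mRNAs of iron-containing proteins when iron is low, had 225, 213, 245 and 207 on glucose and 95.6, 63.9 and 81.8 on galactose. Among copper genes, 2 of 9 were higher and 3 lower, where 9.44% of all genes were higher and 10.7% lower. CTR1, the high affinity copper transporter, was 1.56-fold higher. The count of higher copper genes was 1 without the galactose sample E34 or E56 or the glucose sample lane6854. Phosphate genes were higher in 7 of 19 cases and lower in 1, or 9 and 0 by the deposited values. PHO5, the repressible acid phosphatase, had 2174, 2167, 2449 and 2851 on glucose and 8274, 6518 and 8408 on galactose, 3.1-fold more. PHO89, a phosphate transporter, had 842, 557, 1893 and 634 on glucose and 2785, 3562 and 2578 on galactose, so that E34 was the highest glucose sample here but still below all galactose samples. Without the galactose sample E34, 4 phosphate genes were higher.

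Stress genes gave no common direction. Of 20 heat shock and chaperone genes, 2 were higher and 7 lower on galactose, or 2 and 4 by the deposited values and 6 and 9 with the block. Over all genes 9.44% were higher and 10.7% lower, or 10.8% and 7.94% by the deposited values. The cytosolic Hsp70 genes were divided, since SSA2, which is made constitutively, had 15312, 17756, 15086 and 16533 on glucose and 9113, 9815 and 8589 on galactose, 1.81-fold less, whereas SSA1 was 1.38-fold higher. The inducible SSA4 and HSP82, the inducible Hsp90 gene, were 1.74-fold and 1.71-fold lower. HSP12, a membrane-associated stress protein, had 1702, 1371, 1314 and 1672 on glucose and 3728, 2609 and 3184 on galactose, 2.01-fold more, and the disaggregase gene HSP104 was not called (log2 0.01 ± 0.13), but was with the block (0.19 ± 0.06). Of 22 oxidative stress genes, 6 were higher and 1 lower. SOD2, the mitochondrial superoxide dismutase, was 2.01-fold higher, and AHP1, a peroxiredoxin, had 17067, 15850, 18707 and 18671 on glucose and 7772, 8776 and 7520 on galactose, 2.34-fold less.

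Among genes of growth, the called differences of the ribosomal lists were towards glucose. Over all 5934 genes tested, 10.7% were called lower and 3452 lay below 0, with a median of -0.05. Of 137 cytosolic ribosomal protein genes, 21 were lower on galactose and none higher, with a median of -0.12, while 123 lay below 0. The deposited values gave 3 lower and 1 higher, where 7.94% of all genes were lower. The block gave 47 lower and 1 higher. Of 116 ribosome biogenesis factors, 22 were lower and none higher, with a median of -0.18, and 107 lay below 0. With the block 81 were lower and none higher, with a median of -0.28, where 1069 of all 5934 genes were lower. By the deposited values 14 were lower. In the independent experiment described below, 2 of 137 ribosomal protein genes and 0 of 116 biogenesis factors were lower, where 2.3% of all genes were. Genes for synthesis of arginine, lysine, histidine and branched chain amino acids were lower in 12 of 31 cases, or 7 by the deposited values, and ergosterol genes in 10 of 24, or 6. BAT2, the cytosolic branched chain aminotransferase, had 2890, 2612, 2483 and 2627 on glucose and 1370, 1613 and 1235 on galactose. In these 4 lists the medians lay within 0.21 of 0 on the log2 scale, and without the galactose sample E34 the counts lower were 10, 10, 8 and 4. Without the glucose sample E34 they were 13, 14, 10 and 10. Over all 7 libraries left out in turn the 4 counts were 10 to 14, 10 to 20, 6 to 10 and 4 to 10. Chitin genes were lower in 5 of 10 cases (3 by the deposited values and 2 to 4 when a library was left out, 2 without the galactose sample E34 or lane6854). The sirtuin and rDNA list of 11 and the proton pump list of 17 gave no call, but with the block 1 and 2 of them were lower, and without the glucose sample E34 2 proton pump genes were.

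Cyclins and their inhibitors were higher in 7 of 15 cases and lower in 1, with CLN1, a G1 cyclin, at 755, 812, 761 and 852 on glucose and 1553, 1618 and 1350 on galactose. The count was 3 without the galactose sample E34 or the glucose sample E30_1 or E30_2 and 4 without the galactose sample E56 or with the block. HUG1, a gene annotated as induced by DNA damage, had 220, 186, 150 and 182 on glucose and 71.3, 40.9 and 28.8 on galactose, 3.9-fold less, and the other 12 tested genes of the DNA damage list gave 1 further call, also lower. With any of the 7 libraries left out, 1 gene of that list was called lower. SST2, a regulator of G protein signalling expressed in haploid cells, had 797, 652, 683 and 593 on glucose and 278, 289 and 271 on galactose, 2.52-fold less. The alpha agglutinin gene SAG1 was 1.61-fold lower. Of 7 tested haploid-specific genes, SST2 was the 1 called lower and 2 were called higher on galactose, with a median of -0.03. When a library was left out, 0 or 1 were higher. The summed level of 8 haploid-specific genes was 1103 to 1368 on glucose and 774 to 808 on galactose. SST2 alone gave 593 to 797 of this on glucose and 271 to 289 on galactose. The lower sum therefore reflects SST2 and not a drop across the set. Whether cells of another mating type contribute to the sum was not tested.

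The 2 loxP-flanked genes of the MEP system were read in every sample as a check of the strain. UBC9 had 154, 218, 106 and 178 on glucose and 291, 280 and 265 on galactose, without overlap between groups but not called (log2 0.78 ± 0.21, limma, adjusted p = 0.0155). It was called by the deposited values (0.81 ± 0.19) and with the block (0.98 ± 0.14). CDC20 was 1.23-fold higher on galactose.

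Beyond the listed pathways, the fifth largest rise over all genes was that of OPT2, an oligopeptide transporter, with 72.9, 47.8, 51.8 and 62.3 on glucose and 1345, 1729 and 1707 on galactose, 27.8-fold more (log2 4.8 ± 0.15, limma, adjusted p = 5.77e-09). Retrotransposon reading frames were lower in 11 of 50 cases and higher in 1, with a median of -0.68, where 10.7% of all genes were lower. With a library left out 6 to 15 were lower and 0 or 1 higher, with 6 or 7 lower without the glucose sample E30_1, E30_2 or E34 or the galactose sample E56 or lane6854, and with the block 17 were. YMR045C, which encodes Gag and Pol, had 657, 717, 768 and 383 on glucose and 150, 216 and 142 on galactose. YIL082W, a Gag reading frame among the 6 largest falls, had only 6 to 18 reads on glucose and 0 to 3 on galactose, 17-fold more on glucose with an interval of 5.5 to 84.9, and its call was lost with the block (limma, adjusted p = 0.0146). Copies of these elements are nearly identical, so reads cannot be assigned with certainty to a single one.

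**Figure D3:**
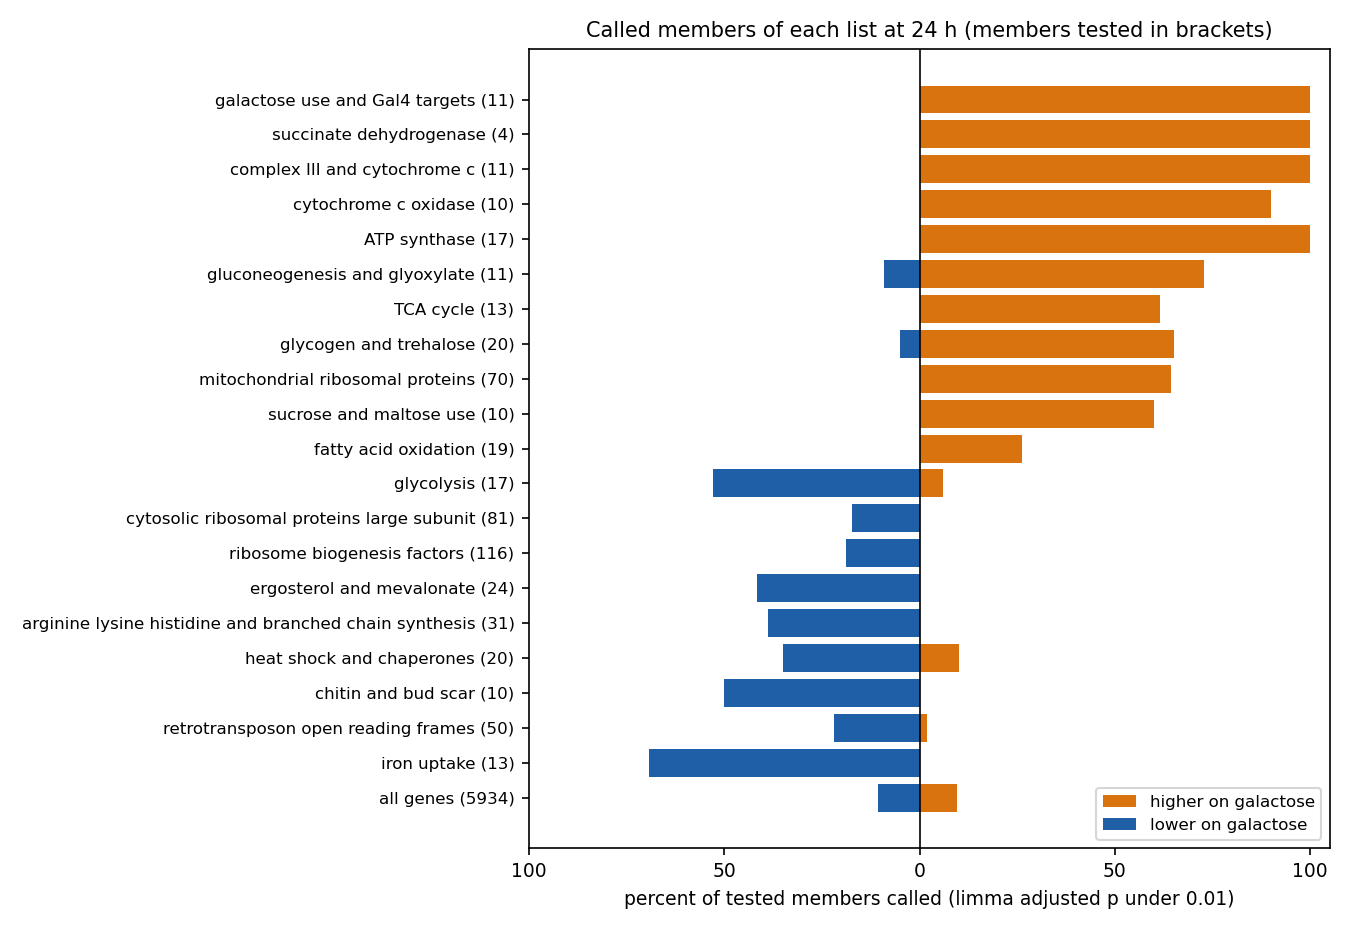
Share of tested genes called higher (right) or lower (left) on galactose at 24 h in each gene list, with the number of genes tested in brackets. The galactose, succinate dehydrogenase, complex III and ATP synthase lists reach 100% to the right, iron uptake extends only to the left, and all genes tested stand at 9.44% and 10.7%.

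The same comparison in the independent experiment (E53, 3 samples on each sugar at 24 h, run for a set of media shifts and not shifted before harvest according to the labels) called 377 of 5960 genes (6.33%), 240 higher (4.03%) and 137 lower (2.3%) on galactose. Of these, 356 were also called in the 7 samples described above, all in the same direction, which is 94.4% of the calls in E53 and 29.8% of the 1194. The sign was the same for 98.9% of the 1194. Across 5904 genes tested in both, Pearson's r of the differences was 0.894, given as a description since genes are not independent replicates. All 11 galactose genes and 38 of the 42 respiratory chain and ATP synthase genes were called higher there. GAL1 differed by log2 9.87, HXT1 by -5.46, OPT2 by 3.99, JEN1 by 3.36, SDH1 by 2.36 and FIT2 by -3.77. Iron uptake had 7 of 13 genes lower, and mitochondrial ribosomal proteins 6 of 70 higher and none lower. Cytosolic ribosomal proteins had 2 of 137 lower, and ribosome biogenesis factors 0 of 116. UBC9 differed by only 0.01 in E53 (limma, adjusted p = 0.993), and HXT2 by -0.14. With the replicate number as a block E53 gave 798 calls (13.4%), and without its galactose sample E53_3 or its glucose sample E53_2 or E53_3 it gave 230, 241 or 233.

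**Figure D4:**
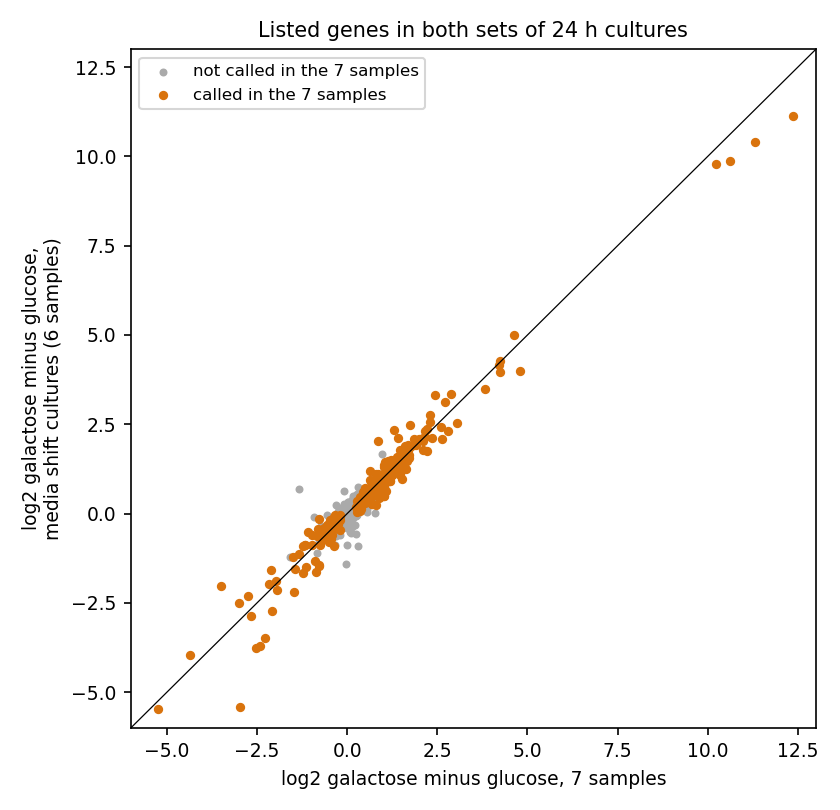
Log2 difference, galactose minus glucose at 24 h, in the 7 samples (x axis) against the 6 samples of the independent experiment (y axis), 1 point per gene of the lists and named genes, genes called in the 7 samples coloured. The galactose genes lie at the upper right and HXT1 and HXT3 at the lower left, and called genes lie close to a common diagonal.

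The difference between sugars was then compared with that in log phase cells, by an interaction of sugar and age that shares the 24 h samples with the results above. Log phase samples came directly from the growing culture, were not purified mothers and, as the paper states, contain many newborn daughters. Age and this change in the cells sampled cannot be told apart in the contrast. The difference between sugars changed in 158 of 5875 genes (2.69%), of which it moved towards glucose in 129 (2.2%) and towards galactose in 29 (0.494%). In 112 of the 129 the difference was nearer to 0 at 24 h than at log phase. On glucose 110 of the 129 had risen between log phase and 24 h, where 12.4% of all genes had, whereas on galactose 28 had fallen (6.55% of all genes) and 15 had risen (5.72%), by fits within each sugar added after seeing the data. The galactose log phase sample lane6854 stood apart, and without it 809 genes were called, including all 158. Leaving out a 24 h galactose sample (E34, E56 or lane6854), the galactose log phase sample E34 or the glucose 24 h sample E30_1 gave 78 to 99. The deposited values gave 445 (7.57%), of which 38.7% moved towards galactose against 18.4% with quantile normalisation, and the fit with the experiment as a block gave 61 (1.04%). In E53, by a fit likewise added after seeing the data, 119 of the 158 (75.3%) were called in the same direction and 1 in the opposite direction, where 15.8% of all genes were called.

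The difference moved furthest towards glucose in TMA10, DSF1, HSP12 and MAL12, in all of which it shrank. TMA10, which encodes a ribosome-associated protein, had 65.2, 28.3 and 29.2 on glucose in log phase (E30_2, E34 and lane6854) and 5337, 5971 and 2923 on galactose (E34, E56 and lane6854). At 24 h its glucose values were 746 to 868 and its galactose values 1564 to 3071 (change in log2 difference -4.73 ± 0.43, limma, adjusted p = 0.000157). HSP12 rose from 46.1, 16 and 59.5 in log phase to 1314 to 1702 at 24 h on glucose, while its galactose values were 1396, 1687 and 3441 and then 2609 to 3728. The log phase glucose values of DSF1 (1.04 to 3.37) and MAL12 (1.11 to 3.37) correspond to a few reads, so that the size of their changes is imprecise. CAT8 and JEN1 followed a like course: CAT8 had 28.1, 45.5 and 39.7 on glucose and 1328, 1432 and 717 on galactose in log phase, and its difference fell by 2.79 by 24 h. SDH1 had 396, 450 and 434 on glucose and 8499, 9157 and 5580 on galactose in log phase, against 930 to 1116 and 4700 to 4913 at 24 h.

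The difference moved the other way most in BSC1, HXT1, YHR214C-C and MLS1. MLS1 was similar on both sugars in log phase, with 19.1, 12.3 and 14.6 on glucose and 25, 46.2 and 16.9 on galactose, and separated at 24 h as given above (change 2.53 ± 0.34, limma, adjusted p = 0.0007). HXT1 had 0.733 to 4.84 normalised counts on galactose in log phase, a few reads at most, and 88.7 to 103 at 24 h. BSC1, which is annotated as similar to a flocculin, had 946, 128 and 477 on glucose and 11.3, 5.86 and 18.7 on galactose in log phase, and its groups lay closer at 24 h, with 264 to 461 and 184 to 246, a difference that was called with the block. YHR214C-C, a retrotransposon Gag reading frame, had 1.87 to 4.4 on galactose in log phase. GAL1 itself did not change its difference detectably (0.59 ± 0.2, limma, adjusted p = 0.0875), with 137332 to 155660 on galactose in log phase.

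**Figure D5:**
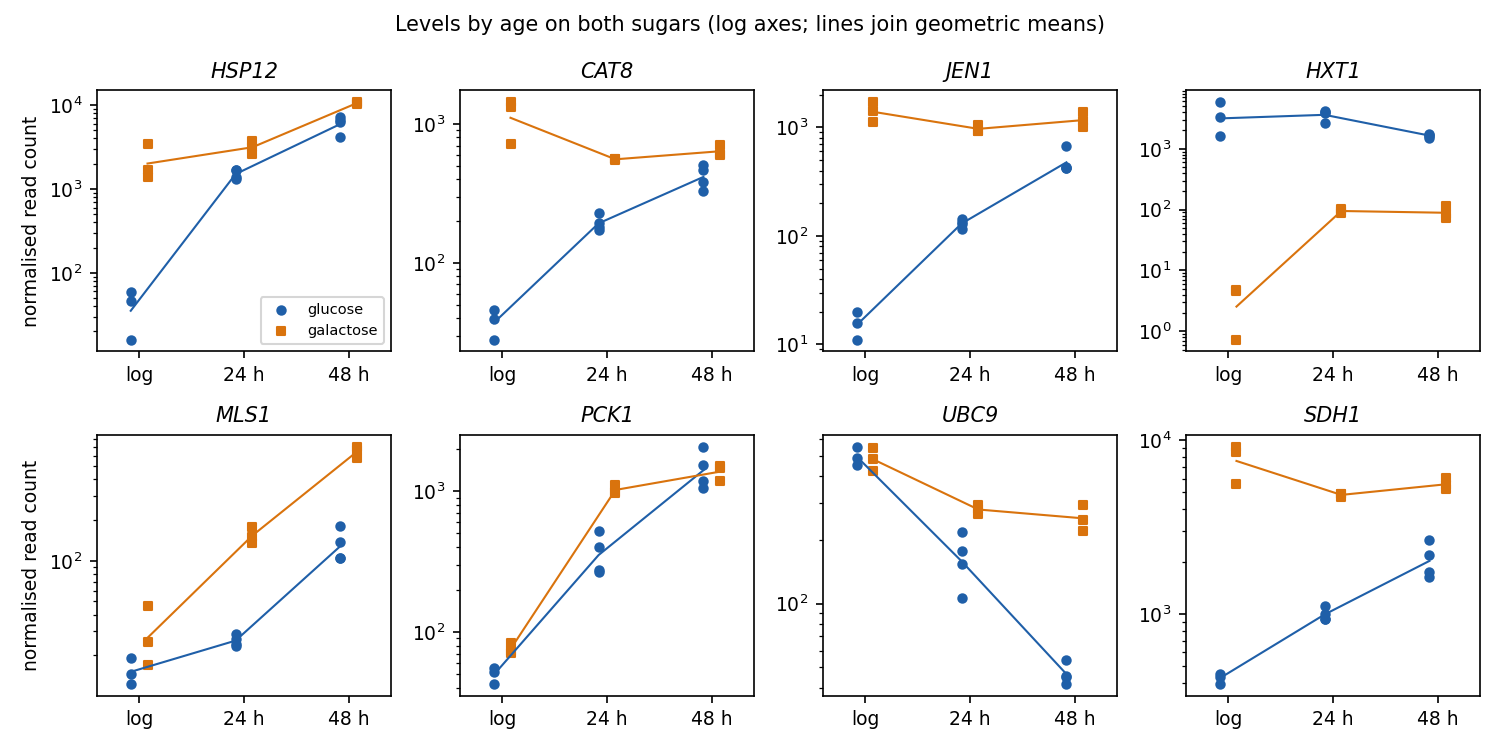
Normalised read counts (log axes) by age on both sugars for HSP12, CAT8, JEN1, HXT1, MLS1, PCK1, UBC9 and SDH1, 1 point per sample, with lines joining geometric means of log phase, 24 h and 48 h samples. HSP12 climbs on glucose from 16 to 59.5 in log phase towards the galactose values, CAT8, JEN1 and SDH1 also rise on glucose, and UBC9 separates between the sugars after log phase, reaching 41.8 to 54.2 on glucose and 221 to 294 on galactose at 48 h.

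Between 24 and 48 h the difference changed in 191 of 5972 genes (3.2%), towards glucose in 106 (1.77%) and towards galactose in 85 (1.42%). These changes came mainly from the glucose samples, since 104 of the 106 had risen on glucose, where 15.4% of all genes had, and 83 of the 85 had fallen there, where 18.5% of all genes had. Over all genes, 33.9% changed on glucose between these ages and 0.569%, or 34 genes, on galactose, and the interaction itself is the test of that difference for single genes. The count ranged from 26, without the galactose 24 h sample E34, to 269, without the glucose 48 h sample E34. It was also 127 or below without the galactose 24 h sample lane6854, any galactose 48 h sample, or the glucose 24 h sample E30_2, E34 or lane6854. It was 400 with the experiment as a block (6.7%) and 471 by the deposited values (7.89%). With quantile normalisation, 44.5% of the calls moved towards galactose, and with the deposited values 60.9%.

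The named genes on the falling side were PCK1, GCY1, JEN1 and TMA10, and all were higher on galactose at 24 h. JEN1 had 422, 419, 431 and 673 on glucose and 1138, 1002 and 1389 on galactose at 48 h (change in difference -1.49 ± 0.21, limma, adjusted p = 0.00137). GCY1 reached 695, 635, 636 and 1435 on glucose, lane6854 being the highest, while galactose stayed at 4194 to 5880. PCK1 on glucose came to lie at 1044 to 2069, overlapping the galactose values of 1173 to 1513. On the rising side were YJL047C-A, YDR222W, UBC9 and YDR042C. UBC9 fell to 54.2, 45.5, 45.2 and 41.8 on glucose and stayed at 294, 249 and 221 on galactose (change 2.17 ± 0.27, limma, adjusted p = 0.000415). In log phase UBC9 had 552, 488 and 451 on glucose and 483, 541 and 423 on galactose. YDR042C and YJL047C-A, which have no described function in the annotation, were lower on galactose at 24 h by 4.48-fold and 4.84-fold, and the groups lay closer at 48 h.

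Besides single genes, the slope of each sample's deviations against mean abundance was measured on the deposited values, as a summary of the whole profile. It was -0.0209 ± 0.0202 (SD, n = 4) on glucose and 0.0279 ± 0.0072 (SD, n = 3) on galactose. The groups did not overlap, with -0.0415 to 0.0038 on glucose and 0.0197 to 0.0329 on galactose. The difference of 0.0489 had a two-sided p of 0.0571 in an exact permutation test, the smallest p this design allows being 0.0286. In E53 the difference was 0.053, again without overlap (exact permutation test, p = 0.1, the smallest that 3 against 3 samples allow). Genes on the right arm of chromosome XII, beyond the rDNA (293 genes tested), had a median deviation of 0.0638 ± 0.0264 (SD, n = 4) on glucose and -0.0754 ± 0.0214 (SD, n = 3) on galactose, a difference of -0.139 on the log2 scale. The groups did not overlap, with 0.028 to 0.087 on glucose and -0.1 to -0.06 on galactose. In E53 the same difference was -0.135 over 296 genes.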

How the data were processed

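Poly(A) RNA was sequenced with a strand-specific kit. The authors mapped trimmed reads to yeast genome R64-1-1 (Trim Galore 0.6.6, HISAT2 2.1.0), counted reads per open reading frame and deposited log2 values scaled by size factors. A sample without a read for a gene is deposited at 0.9 of 1 read, and other values up to 1000 reads were whole reads within 0.02. The main table and the media shift table were used, normalised separately and tested separately, and the tables of mutants and sorted cells were not used. Rows of the mitochondrial genome (28) were left out, leaving 6664 nuclear genes.

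Values were quantile-normalised over the samples of each comparison, genes with a mean log2 below 2 (4 normalised counts) were dropped, and galactose was compared with glucose by limma 3.58.1 with trend in R 4.3.3, with Benjamini-Hochberg adjustment and a threshold of 0.01. The study's count test was replaced by limma because the tables hold log2 values. SE is limma's. Interactions of sugar and age were fitted with both ages. The members and gene lists were chosen with earlier results of these data known. Named genes are the 6 largest rises and falls, the 3 smallest adjusted p-values in each direction, the 4 largest interactions in each direction and members of fixed lists. Where a list's other members are named, they were picked for their role.

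On simulated data limma recovered 90% of genes changed by log2 1 and 99% of those changed by 1.5 in the 7 samples (5979 genes, 0 false calls), and 95% and 99% in the media shift samples (6005 genes, 1 false call at each size). The simulated libraries had a single fixed dispersion for every gene and no experiment or lane effect. These rates are therefore not error rates for the real samples. Replicates were separate libraries, since each of 15 pairs differed beyond sampling noise (chi-square per gene 4.241 to 26.519). Their labels name experiments or lanes and no separate cultures, so p-values measure the spread between these samples. Samples with the same name tended to deviate together, with r of 0.172 for E34, an experiment, and 0.4 for lane6854, a sequencing lane. Other pairs had a mean of -0.056 and reached 0.146. In the media shift samples r was 0.159 to 0.34 within a replicate number, and other pairs had a mean of -0.116 but reached 0.165. Apart from lane6854 the ranges thus nearly meet or overlap, and the pairing comes from these shared names. Alternatives were another scaling, filters, the block, lane as a term, a fit of all 20 samples, other thresholds and leaving out each library.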

Additional observations from a re-analysis of the deposited data

Results flagged for a closer look

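In 11 of 133 genes examined (8.27%), the highest or lowest of the 4 glucose samples lay apart from the other 3 by more than expected from a common spread, where chance gives about 1 in 20. In 9 of the 11 that sample was E34. It was the lowest in HAP4 (985 normalised counts against 1654 to 1832 in the others), in COX5B (229 against 331 to 355), MDH1 (1665 against 2006 to 2084) and STF2 (366 against 574 to 630). It was also the lowest in the glycolytic genes ENO1 (10880 against 17398 to 18928) and PYK2 (313 against 385 to 395), and in the chaperone genes SSA1 (8197 against 9450 to 9699) and HSP104 (3684 against 5207 to 5446). In GAL10 it was the highest (23.1 against 12.1 to 13.2). The others were MAL33 in lane6854 (224 against 279 to 292) and STF1 in E30_1 (730 against 615 to 632). Without the glucose sample E34, 1040 genes were called between galactose and glucose.

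The difference between sugars itself differed between ages in 16 named cases, each by limma's interaction test. From log phase to 24 h it moved towards glucose in TMA10 (-4.73 on the log2 scale), DSF1 (-4.54), HSP12 (-4.23) and MAL12 (-4.04), and towards galactose in BSC1 (4.12), HXT1 (3.96), YHR214C-C (2.68) and MLS1 (2.53). From 24 to 48 h it moved towards glucose in PCK1 (-1.62), GCY1 (-1.58), JEN1 (-1.49) and TMA10 (-1.48), and towards galactose in YJL047C-A (2.6), YDR222W (2.24), UBC9 (2.17) and YDR042C (1.68).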

How the results depend on the processing

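The galactose genes (11 of 11) and the respiratory chain (39 to 41 of 42) kept their calls when any library was left out, with lane as a term and by the deposited values, while mitochondrial ribosomal proteins ranged from 28 to 41 of 70 and cyclins from 3 to 5 of 15 without a library. Over all genes, the 1194 calls became 709 to 1040 when a library was left out, 365 with only the E34 and lane6854 samples, 713 in a fit of all 20 samples, 260 at a fold change of at least 2 and 2062 at an adjusted p of 0.05. In the media shift samples, the 377 calls became 230 to 438 without a library, 175 with no filter on low values, 249 without limma's trend, 221 at 2-fold and 774 at 0.05. The 158 changes from log phase to 24 h became 78 to 809 without a library, 445 by the deposited values, 91 at 2-fold and 456 at 0.05. The 191 changes from 24 to 48 h became 26 to 269, 471, 35 and 623 under the same alternatives, and 108 without the trend. The profile tilt at 24 h, the slope of deviations, differed by 0.0551 with no filter and by -0.0026, the opposite sign, after quantile normalisation, which by construction removes it. The median of the hexose transporters moved from -0.06 to -0.47 by the deposited values and -0.52 under a stricter filter, and that of iron uptake from -0.87 to -1.33 in the media shift samples. Of 51 lists, 50 kept the sign of their median by the deposited values and 44 in the media shift samples. None of the called genes named in the text changed direction under any of these alternatives at 24 h. Elsewhere the causes were not tested.

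With the experiment as a block, which pairs same-named samples, 1822 genes were called at 24 h, 798 in the media shift samples, 61 for the change from log phase to 24 h and 400 for that from 24 to 48 h. The 1822 calls rest on the E34 and lane6854 pairs alone. Of 114 named genes called, 112 kept their call under the block. Calls were lost for 13 with no filter, 8 without the trend, 8 without the galactose sample E34, 13 in the fit of all 20 samples and 25 with only the E34 and lane6854 samples. Depth limits genes below about 4 normalised counts, where 277 to 448 nuclear genes per library had no read.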

Other observations

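Mothers aged for 24 h on other sugars were sequenced for the same study, with 2 samples on fructose, 1 on sucrose and 1 on raffinose with galactose. Their values are given without a test. GAL1 had 57 and 64.7 normalised counts on fructose and 53.1 on sucrose, within or just below the range on glucose, and 80441 on raffinose with galactose. SDH1 had 1058 and 1317 on fructose, 915 on sucrose and 3716 on raffinose with galactose, where the glucose samples had 930 to 1116 and the galactose samples 4700 to 4913. PET9 had 5968 and 6583, 5940 and 14243 in the same order, and JEN1 102 and 113, 182 and 975. In these genes the fructose and sucrose samples were near the glucose samples, and the sample with both sugars was near the galactose samples.

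The transporters were less alike. HXT1 had 1648 and 1790 on fructose, 317 on sucrose and 182 on raffinose with galactose, against 2637 to 4218 on glucose and 88.7 to 103 on galactose. HXT7 had 2024 and 4377 on fructose and 1649 on sucrose, between the glucose range of 379 to 796 and the galactose range of 10245 to 12108. MIG2 had 577 and 686 on fructose and 328 on sucrose, again between glucose (864 to 988) and galactose (125 to 143). FIT2 had 177 and 376 on fructose and 267 on sucrose, below every glucose sample (378 to 625) and above every galactose sample (64.5 to 103). CIT2 was different again, since raffinose with galactose gave 2098, between galactose (612 to 708) and glucose (2464 to 3079), and sucrose gave 4415, above all of them.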
